A study of Mus musculus with 6 samples.

Results

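Metallothioneins and the proteins that import, store, export and sense iron were followed through 10 genes in DR4 mouse embryonic fibroblasts: Mt1, Mt2, Mtf1, Fth1, Ftl1, Tfrc, Slc40a1, Slc11a2, Ireb2 and Aco1. Members were all probe sets that carry one of these symbols in the platform annotation. A probe set is the group of short oligonucleotides by which an Affymetrix array measures a transcript. The rule found 24 of 22690 probe sets on the MOE430A array and 8 of 22575 on the MOE430B array. Of these 32, 23 carry a single member symbol and cover 9 of the 10 genes, against 18193 genes with a single symbol on the arrays as a whole. The 3 that name Ftl1 also name its pseudogene Ftl1-ps2, and 6 are manufacturer's control probe sets for Tfrc, 3 on each array type.

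DR4 fibroblasts serve as a feeder layer for embryonic stem cells, and the mice they come from are known to carry several drug resistance genes. Per the labels they came from day 15 embryos, and they are the control for the embryonic stem cells R1, J1 and V6.5, which were not analysed here. They were grown in D-MEM with 15% serum, beta-mercaptoethanol and LIF on 0.1% gelatin, and no metal, chelator or other treatment is named. RNA of 3 replicates was put on both array types, which gives 6 samples: in the labels' notation, the RNA of replicate 1 came from 12x10e6 cells and had 2.4 ug/ul, and that of replicates 2 and 3 came from 3x10e6 cells each and had 3.0 ug/ul. Whether the replicates were grown as separate cultures is not stated, so the p-values rest on a spread between samples that may be technical only.

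Metallothioneins are small cysteine-rich proteins that bind zinc, copper and cadmium, and their genes are switched on by the zinc-sensing transcription factor encoded by Mtf1, which binds metal response elements in their promoters. Iron enters most cells bound to transferrin through the transferrin receptor Tfrc, leaves the endosome through the transporter Slc11a2, is stored inside ferritin shells built of Fth1 and Ftl1 chains, and is exported by ferroportin, Slc40a1. The iron regulatory proteins encoded by Aco1 and Ireb2 bind iron-responsive elements when iron is scarce, which stabilises the Tfrc messenger RNA and blocks translation of ferritin. Arrays measure the RNA and not its translation.

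The metal response element core is the sequence feature by which Mt1 and Mt2 are known to share regulation, so it was looked up beside their signals. The search used TGCACNC and TGCGCNC on both strands, in sequence from RefSeq on GRCm38.p6. Mt2 and Mt1 are neighbours on chromosome 8, on the plus strand, with 5315 bases between the end of the Mt2 gene and the start of the Mt1 gene at 94178883. The Mt1 window ends at 94179088, before a start site further downstream, so most of it lies inside the Mt1 gene as the gene table gives it. The 250 bases before the Mt2 start, chr8:94172368-94172617, hold 3 cores, in capitals.
Mt2 upstream: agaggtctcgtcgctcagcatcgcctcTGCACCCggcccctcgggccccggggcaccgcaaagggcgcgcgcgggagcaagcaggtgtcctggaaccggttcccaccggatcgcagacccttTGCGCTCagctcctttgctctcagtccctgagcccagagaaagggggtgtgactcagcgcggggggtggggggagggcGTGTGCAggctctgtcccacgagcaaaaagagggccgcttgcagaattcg
A core was found in 21.4% of all 32851 such windows and 3 or more in 1.26%. The 250 bases before the listed start site of Mt1 held 1 core. With 50 bases after the listed start site included, Mt1 had 3 cores, Mt2 had 4 and Aco1 had 1. The shares above do not apply to this longer stretch. Whether the listed Mt1 start is the one used in these cells was not tested. The counts therefore do not compare the promoters of Mt1 and Mt2. The cores of Mt1 are each shown in capitals within 30 bases.
Mt1 site 1, chr8:94179055-94179084: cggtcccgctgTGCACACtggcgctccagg
Mt1 site 2, chr8:94179080-94179109: ccagggagctcTGCACTCcgcccgaaaagt
Mt1 site 3, chr8:94179098-94179127: cgcccgaaaagTGCGCTCggctctgccaag
The windows of Fth1, Ftl1, Mtf1, Ireb2 and Aco1 had 0 cores in the 250 bases before the start, and 1 of the 2 Tfrc windows had 2 overlapping cores. The antioxidant response element core TGACNNNGC, searched on both strands in the same windows, occurred once in that of Mt2, in none of the other members' windows, and in 10.2% of all windows. Slc40a1 and Slc11a2 had no window in the table used. A match is a run of letters and not a site shown to be bound.

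All values below are MAS5 signals, linear intensities on which the submitters' processing scaled each array. An array's own median signal served as the floor, at 689, 685 and 734 on the MOE430A arrays of replicates 1, 2 and 3 and at 849, 917 and 907 on the MOE430B arrays. Probe sets hybridize with different brightness, so their signals give no ranking of transcripts. MOE430B signals are also larger by construction: 100 probe sets present on both types had a median MOE430B to MOE430A ratio of 4.15, 3.46 and 3.79 in replicates 1, 2 and 3, and no level is set across the types. Fibroblast markers were in place, with 12 of 12 measured genes above the floor on all 3 arrays. Of the other cell types that are rich in iron genes, 2 of 11 erythroid genes were above it (Epor and Ank1), 5 of 13 macrophage genes and 1 of 10 hepatocyte genes (Apob, through MOE430B). The globin probe sets that carry one list symbol were all under the floor on at least 1 array. Their signals were 177, 153 and 124 for Hba-a1 and 805, 478 and 347 for Hba-x in replicates 1, 2 and 3. The listed globin genes Hbb-b1 and Hbb-bt had no such probe set and were not read. The summed erythroid signal on MOE430A was 6134, 5418 and 6011 in replicates 1, 2 and 3, that of the macrophage list 9368, 10011 and 8355, that of the hepatocyte list 3537, 3263 and 2047, and that of the fibroblast list 703376, 791432 and 862787. The part of these cell types in the results was not tested. In bulk RNA, fewer cells of a type and less RNA per cell cannot be told apart.

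On MOE430A, 9 of the 18 single-symbol member probe sets (50%) lay above the floor on all 3 arrays, 5 on 1 or 2 arrays and 4 on none. Of all MOE430A probe sets 42.4% lay above it on all 3. The 9 represent 8 genes: Mt1, Mt2, Fth1 (both of its probe sets), Tfrc, Slc40a1, Slc11a2, Ireb2 and Aco1. On MOE430B 1 of 5 did, a probe set of Mtf1, against 37.2% of all MOE430B probe sets. Each of the 9 genes with a probe set of its own was therefore above this floor on at least 1 array type. A gene counts here, and in the gene lists, through any 1 of its probe sets. The share of all genes that pass in this way was not computed, so the gene counts mark no trait of these genes. With each array's 75th percentile as the floor, 4 MOE430A probe sets of 3 genes (Mt1, Mt2 and Fth1) and the 1 Mtf1 probe set on MOE430B were above it.

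Both widely expressed metallothionein genes gave strong signals. In replicate 1 Mt1 reached a signal of 15913, against 22768 and 21248 in replicates 2 and 3, on the probe set 1422557_s_at (19976 ± 3599.8, SD, n = 3). Replicate 1 was the lowest of the 3 and stood apart from the other pair. The suffix _s_at marks probes that match more than 1 transcript, so this signal may hold more than Mt1. The second Mt1 probe set, 1451612_at, had 66.2 in replicate 1, against 250.5 and 107 in replicates 2 and 3, all under the floor. So 2 probe sets of 1 gene lay on opposite sides of the floor, and only the first is followed further.

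In replicate 1 Mt2 reached a signal of 10192.5, against 8652 and 8619.8 in replicates 2 and 3 (9155 ± 899, SD, n = 3). Replicate 1 was here the highest of the 3. The brain-type and the squamous epithelium metallothioneins, Mt3 and Mt4, were under the floor on all 3 arrays, with 131, 33.2 and 59.1 for Mt3 and 129, 211 and 314 for Mt4 in replicates 1, 2 and 3.

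Mtf1 was read by 5 probe sets, which lay on both sides of the floor. On MOE430B 1428979_at had 4692 in replicate 1, against 4070.3 and 3556 in replicates 2 and 3 (4106 ± 569, SD, n = 3), the one Mtf1 probe set above the floor throughout. The other MOE430B probe sets had 203, 316 and 212 (1440414_at) and 639, 344 and 1327 (1452990_at), the second of them above the floor in replicate 3 alone. On MOE430A 1418333_at lay close to the floor at 657, 740.5 and 646, and 1429170_a_at lay far under it at 99.3, 103 and 60.1.

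**Figure D1:**
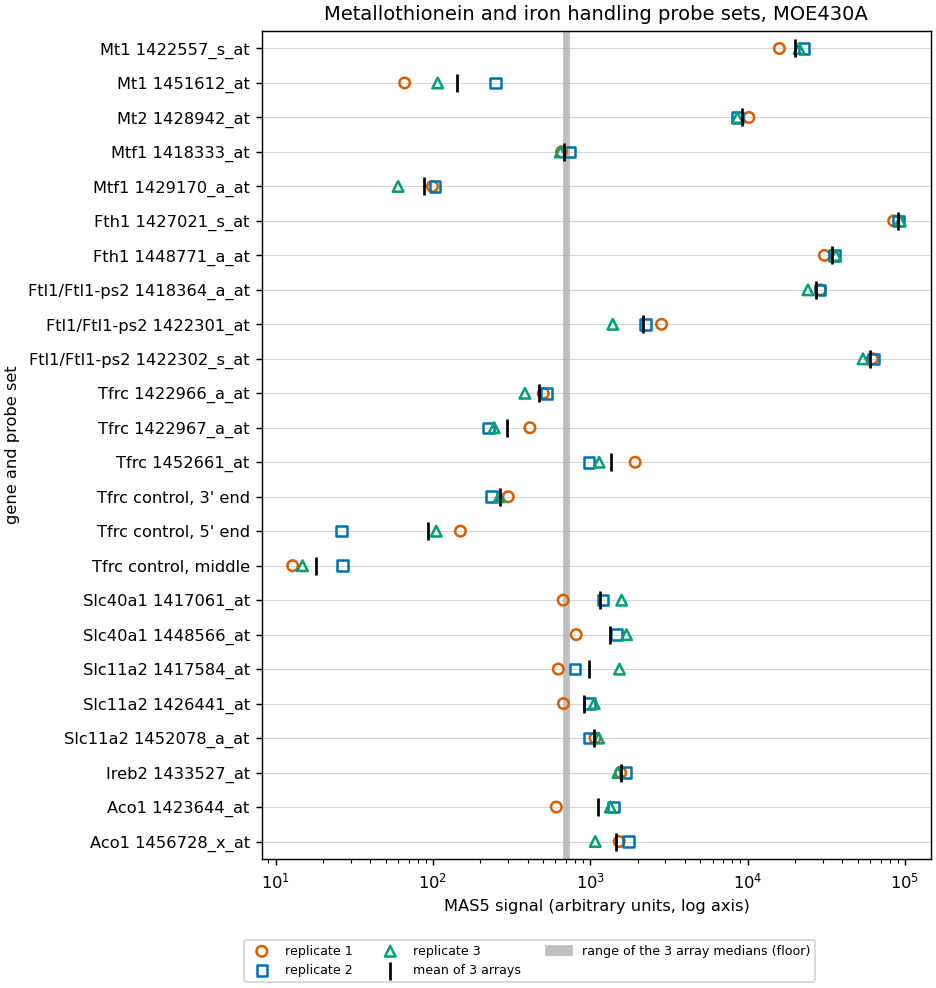
MAS5 signal on a log axis for the 24 MOE430A probe sets, with a marker for each replicate, a bar for the mean of the 3 arrays and a grey band for the range of the 3 array medians. The Fth1 probe sets, the shared Ftl1 probe sets, Mt1 on 1422557_s_at and Mt2 lie to the right of the band, and the second Mt1, 1 Mtf1, 2 Tfrc and the Tfrc control probe sets lie to its left in all 3 replicates.

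Ferritin heavy chain lay far above the floor and varied little between the arrays. In replicate 1 Fth1 reached a signal of 84766, against 91172 and 93230.4 in replicates 2 and 3, on 1427021_s_at (89723 ± 4414, SD, n = 3), and the second probe set, 1448771_a_at, had 30754 against 35758 and 36300.5 (34271 ± 3057). Both put replicate 1 lowest, by little. Their standard deviations on the log2 scale, 0.07 and 0.13, were exceeded by 94.6% and 82.1% of all tested MOE430A probe sets. Ferritin genes have near-identical processed copies, which the _s_at suffix does not separate.

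Ferritin light chain could not be read alone. The 2 probe sets that name Ftl1 together with Ftl1-ps2 had signals of 62050.1, 63217 and 54113 (1422302_s_at) and of 29031, 28740.2 and 24168 (1418364_a_at) in replicates 1, 2 and 3. In both, replicate 3 was the lowest and replicates 1 and 2 lay close together. The last, 1422301_at, which also names several microRNA genes, had 2839 in replicate 1, against 2247 and 1390.5 in replicates 2 and 3.

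Transferrin receptor was above the floor by 1 of its 3 probe sets. The Tfrc signal on 1452661_at was 1929.6 in replicate 1, against 982 and 1139 in replicates 2 and 3 (1350.2 ± 508, SD, n = 3). Replicate 1 was thus the highest of the 3, as in 33.2% of all tested MOE430A probe sets. The other probe sets stayed under the floor, with 503, 526 and 384 (1422966_a_at) and 414, 226 and 245 (1422967_a_at). The second of them also put replicate 1 highest, and the first did not. The control probe sets, which read the 3' end, the middle and the 5' end of Tfrc separately, had 301, 236 and 264 at the 3' end, 12.9, 26.6 and 14.8 in the middle and 149.7, 26.2 and 105 at the 5' end on MOE430A, all under the floor. On MOE430B the 3' end had 1408 in replicate 1, against 832 and 1745 in replicates 2 and 3, so there replicate 3 and not replicate 1 was highest. The 5' end had 816, 520.5 and 591 on MOE430B and the middle 32.3, 67.6 and 50.2.

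Ferroportin gave the same order on both of its probe sets. The Slc40a1 signal was 814 in replicate 1, against 1469.6 and 1699.7 in replicates 2 and 3, on 1448566_at (1328 ± 459.6, SD, n = 3). The second probe set, 1417061_at, had 673 in replicate 1, under its floor, against 1205 and 1584 (1154 ± 458). Replicate 1 was lowest and replicate 3 highest on each.

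The endosomal iron transporter was less uniform. Slc11a2 on 1452078_a_at had 1073 in replicate 1, against 987 and 1131 in replicates 2 and 3 (1064 ± 72.4, SD, n = 3), with replicate 1 in between. On 1417584_at it had 626.5 against 799 and 1534, and on 1426441_at 676 against 987 and 1059.6, so these 2 put replicate 1 lowest and under its floor. The MOE430B probe set had 174, 194 and 194, under the floor.

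The iron regulatory proteins closed the set. Ireb2, which encodes the form degraded in iron-rich cells, had 1561 in replicate 1, against 1673 and 1499 in replicates 2 and 3 (1578 ± 88.6, SD, n = 3), with a log2 standard deviation of 0.08 that 93.4% of tested probe sets exceeded. Aco1, which encodes the form that doubles as cytosolic aconitase, had 608 in replicate 1, against 1401 and 1341 in replicates 2 and 3, on 1423644_at (1117 ± 441), and replicate 1 stood apart, under its floor. Its second probe set, 1456728_x_at, had 1528 against 1749.8 and 1075 (1451 ± 344), with replicate 1 in between. On MOE430B Aco1 had 1349, 1231 and 372, the last under the floor. The 3 Aco1 probe sets therefore gave 3 different orders of the replicates.

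**Figure D2:**
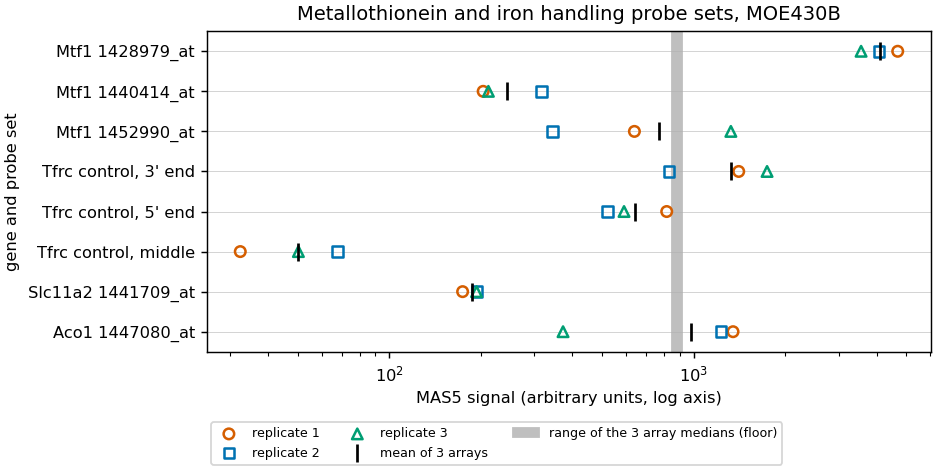
MAS5 signal on a log axis for the 8 MOE430B probe sets, with a marker for each replicate, a bar for the mean of the 3 arrays and a grey band for the range of the 3 array medians. Mtf1 on 1428979_at is the one probe set to the right of the band in all 3 replicates.

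Replicate 1 was set against replicates 2 and 3, the difference in cell number and RNA concentration that the labels record, by limma on log2(signal + 16) over all probe sets with a mean signal above the mean floor on the log2 scale. Of the member probe sets with a single symbol 13 of 18 entered on MOE430A and 1 of 5 on MOE430B, and 0 passed an adjusted p of 0.05 on either. Over all probe sets limma called 0.705% of 11066 on MOE430A (0.217% higher and 0.488% lower in replicate 1) and 0% of 10594 on MOE430B. A single array on one side leaves 1 residual degree of freedom, and its own spread is taken to equal that of the other pair. limma combines each probe set's spread with one shared by all tested probe sets. In this fit the shared spread weighed 25.6 degrees of freedom on MOE430A and 3.49 on MOE430B. Intervals and p-values therefore rest mainly on the shared spread and less on that of each probe set. At an unadjusted p below 0.05, without the signal filter, limma had 1 of the 18 MOE430A member probe sets (Aco1 on 1423644_at), against 5.73% of all probe sets, a share near the background. With the filter it had 4 of 13, against 8.13% of all tested probe sets. Of these 4, from 3 genes, 2 were under the floor in replicate 1 and passed the filter through replicates 2 and 3, so the count is no support for a difference of the members. On MOE430B it had 0 of 1, against 7.24%.

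The 4 were those of Aco1, Slc40a1 (both) and Tfrc. Aco1 on 1423644_at had a log2 difference of -1.15 (95% interval -1.90 to -0.40, adjusted p = 0.192 by limma), at least 1.97-fold lower in replicate 1 with the floor in place of its signal. Slc40a1 had -1.02 (-1.78 to -0.26, adjusted p = 0.317 by limma), at least 1.98-fold lower, on 1417061_at, and -0.94 (-1.70 to -0.19, adjusted p = 0.373) on 1448566_at. Tfrc had 0.86 (0.10 to 1.61, adjusted p = 0.493 by limma), a signal 1.81-fold higher in replicate 1. The exporter and the receptor thus had differences of opposite sign, and neither passed the test over all probe sets. The scan day of replicate 1 was shared by replicate 2 and not by replicate 3 on MOE430A. Within the shared day, replicate 1 minus replicate 2, the differences were -1.18 for Aco1, -0.83 and -0.84 for Slc40a1 and 0.96 for Tfrc.

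**Figure D3:**
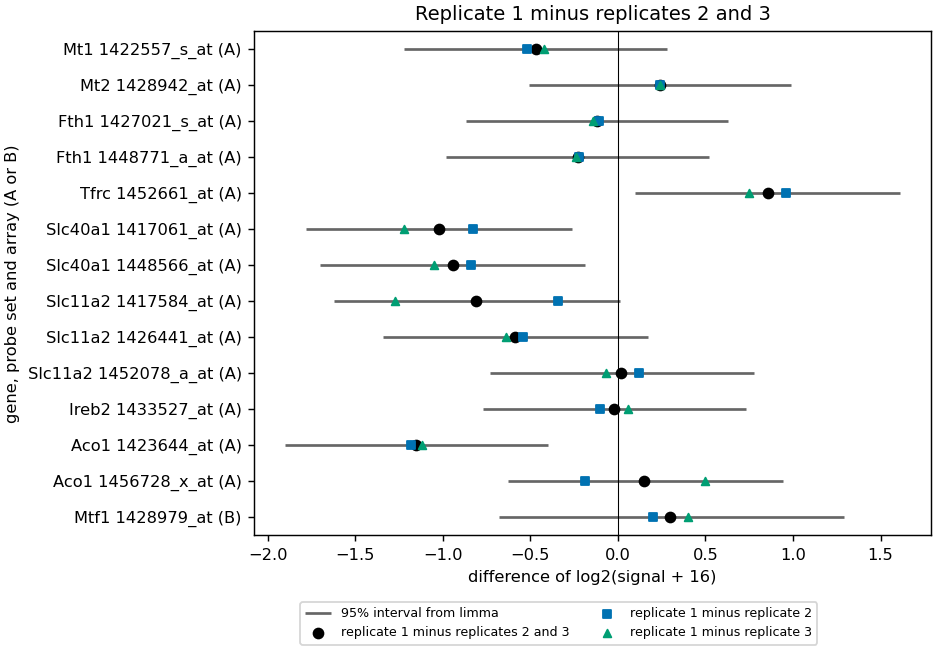
Difference of log2(signal + 16), replicate 1 minus replicates 2 and 3, for the 14 tested member probe sets, with the 95% interval from limma as a line and the differences from replicate 2 and replicate 3 alone as squares and triangles. The intervals of Tfrc (0.10 to 1.61), both Slc40a1 probe sets and 1 Aco1 probe set do not reach 0, before adjustment over all probe sets.

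For the other members the interval of the difference included 0. Mt1 had a log2 difference of -0.47 (95% interval -1.22 to 0.28, adjusted p = 0.854 by limma), and Mt2 had 0.24 (-0.51 to 0.99, adjusted p = 0.963), with opposite signs in the neighbouring genes. Within the shared scan day they were -0.52 and 0.24. Fth1 had -0.12 (-0.87 to 0.63) and -0.23 (-0.98 to 0.52), Ireb2 had -0.02 (-0.77 to 0.73), and Mtf1 on MOE430B had 0.30 (-0.68 to 1.29). Slc11a2 had -0.81 (-1.62 to 0.01), -0.59 (-1.34 to 0.17) and 0.02 (-0.73 to 0.78) on its 3 probe sets, and the second Aco1 probe set had 0.15 (-0.63 to 0.94). Intervals this wide do not show that replicate 1 was like the others. On MOE430B the arrays shared a scan day, and replicate 1 alone was on another instrument station, so for Mtf1 the effect of the station cannot be told apart from that of replicate 1.

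Replicate 1 was the lowest of the 3 arrays in 8 of the 13 tested MOE430A member probe sets, against 35.6% of all tested probe sets, and the highest in 2, against 33.2%. Without a filter on signal it was lowest in 9 of 18, against 34.9%, and highest in 3, against 32.3%. Probe sets of 1 gene share their transcript, so these counts hold fewer independent readings than probe sets. The median log2 difference of the 13 was -0.23, against -0.01 over all tested probe sets, and that of all 18 was -0.10, against -0.01. Of the 13, Aco1 on 1423644_at, Slc40a1 on 1417061_at and Slc11a2 on 1417584_at and 1426441_at were under the floor in replicate 1. They passed the filter through replicates 2 and 3, so the counts and the median of the 13 are no support for a difference of the members. The median log2 standard deviation of the 13 was 0.34, against 0.26 over all tested MOE430A probe sets. The members were spread around 0.26, with Fth1, Ireb2 and Mt2 (0.14) under it. Aco1 (0.67 and 0.36), Slc40a1 (0.62 and 0.55), Tfrc (0.51) and, by little, Mt1 (0.27) were above it. Slc11a2 lay on both sides (0.66, 0.34 and 0.10). The ratio of the 3' to the 5' control signal of Gapdh, a measure of RNA quality, was 1.27 in replicate 1 and 1.16 and 0.85 in replicates 2 and 3 on MOE430A. The same ratio of Actb was 1.05 in replicate 1 and 1.17 and 1.09 in replicates 2 and 3, so the 2 ratios order the replicates differently. Their part in these differences was not tested.

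The rest of metal and haem handling was read through 7 lists with 121 different genes. Together they gave 102 tested probe sets on MOE430A and 40 on MOE430B, of which limma called 1, a Txnrd1 probe set of the oxidative stress and glucocorticoid list, a call that was lost under 4 of 6 other settings. Among the iron uptake and export genes, 10 of 19 measured were above the floor. The median log2 difference was -0.35 over the 13 tested MOE430A probe sets and 0.31 over the 5 on MOE430B. Some, such as Cp on 1455393_at (563.5 against 982 and 1449), were under the floor in replicate 1 and passed the filter through replicates 2 and 3. The values below are therefore no support for a difference of the list. Its largest differences belonged to the endosomal iron reductase gene Steap3 and the ferroxidase gene Cp. Cp had 711 in replicate 1, against 1159 and 1964 in replicates 2 and 3, on 1417494_a_at. Steap3 had 767 against 1496 and 2175 on 1423468_at, above the floor throughout, and 386 against 861 and 1173 on 1430355_a_at. Steap3 was under the floor in replicate 1 on that probe set, so it is given as at least 1.45-fold lower (adjusted p = 0.112 by limma), and Cp had a log2 difference of -1.07 (adjusted p = 0.310).

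Of the storage and sensing genes 8 of 9 measured were above the floor. The iron chaperone gene Pcbp1 reached 12770.5 in replicate 1, against 7850.5 and 7006 in replicates 2 and 3, and a log2 difference of 0.78 (adjusted p = 0.579 by limma). Cdc42bpa, whose transcript is known to carry an iron-responsive element in human cells, had 3552 against 2442 and 2877 on its 1 MOE430B probe set above the floor. Its MOE430A probe set had the opposite sign, with 1719 in replicate 1, against 2163.5 and 2096 in replicates 2 and 3, and a log2 difference of -0.31. Among haem genes 11 of 18 were above the floor. Bach1, the haem-sensing repressor, had 543 in replicate 1, under the floor, against 920.3 and 1432 on 1449311_at. Uros, an enzyme of haem synthesis, had 1722 against 4070.3 and 3233 on MOE430B, and 2469.5 against 2556 and 2926 on MOE430A. None of these passed, with adjusted p-values from limma of 0.864 for Cdc42bpa, 0.305 for Bach1 and 0.672 for Uros.

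Of the mitochondrial iron-sulphur genes 16 of 17 lay above the floor, with 0 of 18 tested MOE430A probe sets called by limma and 0 at an unadjusted p below 0.05. Their largest differences were those of Ciapin1 (1369 in replicate 1, against 684 and 978 in replicates 2 and 3) and Fdx1 (2263 against 3111 and 3744). The Ciapin1 values are those of 1448140_at, just under the floor in replicate 2. On its other MOE430A probe set, 1415910_s_at, Ciapin1 had the same sign, with 1913 against 1361 and 1455 and a log2 difference of 0.44. On its MOE430B probe sets Ciapin1 had log2 differences of -0.10 and 0.12. All 12 copper genes were above the floor, and the copper pump gene Atp7a had 821 against 1187 and 1373. Sod1 on 1440222_at of MOE430B had 774 in replicate 1, under the floor, against 1265 and 1045. Its probe sets far above the floor had the opposite sign, with 45776 against 37687 and 34127 on 1459976_s_at of MOE430B and 32651 against 32356 and 25574 on 1451124_at of MOE430A. Of the zinc genes 14 of 24 were above the floor, and the 2 largest differences, both on MOE430B, came from probe sets under the floor in replicate 1, Slc30a10 (392 against 1008 and 2239.8) and Slc39a5 (504 against 1755 and 1069.7). On MOE430A the largest was that of Slc30a3, above the floor on all 3 arrays. It had 754 in replicate 1, against 1633 and 2015 in replicates 2 and 3, and a log2 difference of -1.25. None of the mitochondrial, copper and zinc genes just named passed.

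The oxidative stress and glucocorticoid list holds genes whose regulators are also known to act on Mt1 and Mt2. Of its 14 genes 13 were above the floor, and 10 of 21 tested MOE430A probe sets had an unadjusted p below 0.05, against 8.13% of all tested probe sets, with a median log2 difference of 0.59, against -0.01 over all tested probe sets. The quinone reductase gene Nqo1 had 4195 in replicate 1, against 1579 and 1683 in replicates 2 and 3, and did not pass (adjusted p = 0.0959 by limma). Txnrd1, the gene called, had 3121 against 243 and 1482 on 1424486_a_at, with a log2 difference of 2.33 (adjusted p = 0.0445 by limma). Replicate 2 was under the floor there, and the difference was 1.07 from replicate 3 alone. The call was lost with a pseudocount of 1 (adjusted p = 0.0591 by limma), median centring (0.329), quantile normalization (0.648) and no signal filter (0.978), and kept with a pseudocount of 64 (0.0190) and an eBayes trend (0.000377). A second Txnrd1 probe set, 1421529_a_at, had 9588 in replicate 1, against 5384 and 5079.6 in replicates 2 and 3, and did not pass, with a log2 difference of 0.87 (adjusted p = 0.464 by limma). Mt2 was highest in replicate 1 and Mt1 lowest there, each without passing the test.

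**Figure D4:**
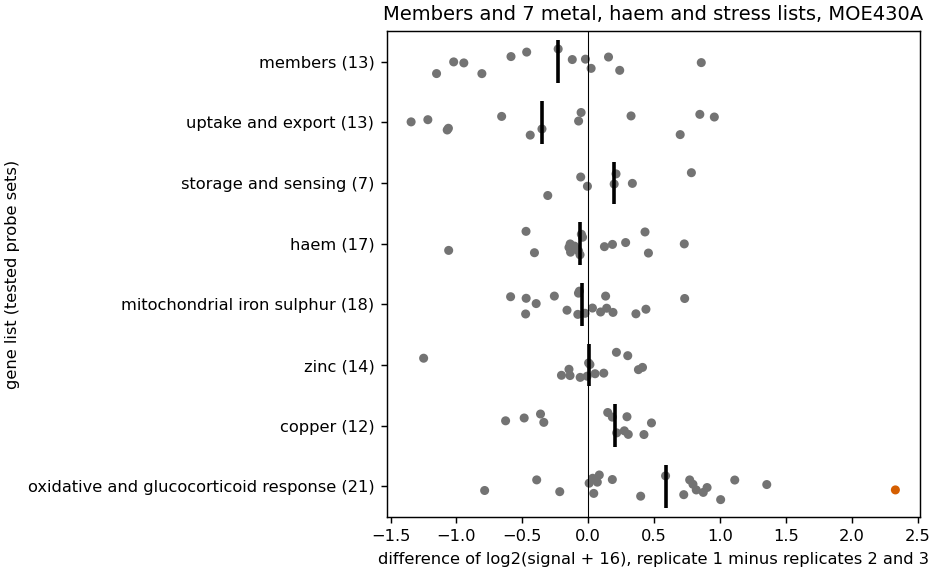
Difference of log2(signal + 16), replicate 1 minus replicates 2 and 3, for each tested MOE430A probe set of the members and of 7 gene lists, with a black bar at each list's median. Grey points did not pass limma's adjusted p of 0.05, and the coloured point is the Txnrd1 probe set at 2.33, whose call was lost under 4 of 6 other settings.

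The probe sets whose deviations over the 3 MOE430A arrays lay closest to those of Mt1, by Euclidean distance on the log2 scale, belonged to Slf2 (0.003), Nfatc1 (0.004) and Igsf8 (0.011). Among 11065 probe sets compared, 240 lay within 0.1 of Mt1, so with 3 arrays many probe sets share this order.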

How the data were processed

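Total RNA of 3 replicates was hybridized to 2 Affymetrix array types. Each deposited table gives linear intensity values, the MAS5 signal of 1 array per column. MAS5 is the tool that the submitters' processing notes name, without version or settings. Without the top and bottom 2% of probe sets the mean was 1500.5 on every MOE430A array and 1500.2 on every MOE430B array, so each type had been scaled to 1 target. Symbols of the platform annotation, some of them old, were updated through the gene identifier against RefSeq (20351 of 20380 MOE430A and 14486 of 14661 MOE430B single-symbol probe sets matched, and 691 and 245 had several symbols).

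Members and gene lists were chosen with earlier results of these data known. Every member probe set is named. Of each list, called probe sets are named, or otherwise the 2 genes with the largest difference. Mt3, Mt4, Nqo1, Nr3c1, Keap1, Tsc22d3, Slc30a3, Hba-a1, Hba-x, Epor, Ank1 and Apob fall outside this rule and were picked with their values in view. Control probe sets were left out of the fits. limma 3.58.1 (R 4.3.3) ran lmFit and eBayes on log2(signal + 16) within each array type, with Benjamini-Hochberg adjustment over all tested probe sets. Fold changes on that scale understate those of dim genes. The fit was tested on simulated data, 10 draws with 200 changed probe sets each: on MOE430A (11066 probe sets) 16.6% of log2 changes of 1 and 94.8% of changes of 2 were called, and on MOE430B (10594 probe sets) 0% of either. The simulated spread was drawn from the distribution that limma fitted to these same data and was equal on all arrays, so these shares hold only under that model. The number of arrays limits the precision. Alternatives were other floors, pseudocounts, filters, scalings, an eBayes trend and leaving out replicates. No coordinates are given for probe sets, because an array has no genome build.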

Additional observations from a re-analysis of the deposited data

How the results depend on the processing

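The count of member probe sets above the floor depends on the floor. On MOE430A it was 9 with the array median, 4 with the 75th percentile and 16 with a fixed signal of 200, and 9 to 13 when 1 replicate was left out (13 without replicate 1). On MOE430B it was 1 with the median and 4 with the signal of 200. It was 1 to 2 there when 1 replicate was left out (2 without replicate 3). With each array's brightest tryptophan control as the floor, the count was 12 on MOE430A and 1 on MOE430B. This control had signals of 614.5, 756.6 and 785.6 in replicates 1, 2 and 3 of MOE430A. Its MOE430B signals of 1988.6, 2348.3 and 2229.1 lay far over the array medians. Apob, counted through MOE430B, was under the control in replicates 1 and 2 (1393 and 1412). Gene counts of the lists were not repeated with this floor. The count of all probe sets called on MOE430A was 78, against 0 without the signal filter, 0 with quantile normalization, 13 with median centring and 164 with an eBayes trend. On MOE430B it was 0 under each of these settings by limma, with 767 at an unadjusted p below 0.05 in the fit reported, 1777 without the filter, 700 with quantile normalization, 768 with median centring and 798 with an eBayes trend. No member probe set was called by limma under any setting, with a lowest adjusted p of 0.189 over 84 refitted values. Of those, 82 kept their direction, and Ireb2 changed sign, to 0.02 with quantile normalization and 0.02 with median centring. With replicate 1 set against 1 other replicate, which is a value with no test, 3 of 28 member differences changed sign (Slc11a2 on 1452078_a_at, Ireb2, and Aco1 on 1456728_x_at). Counts of calls could not be made with 1 array against 1. No paired analysis was possible because each replicate number occurs once on each array type.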
